A study of Homo sapiens with 27 samples.

Results

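The MYC gene, the AP-1 genes JUN, JUNB, JUND, FOS, FOSL1 and FOSL2, and the immediate early genes EGR1, IER2 and IER3 were followed through 27 RNA libraries of edited human aortic endothelial cells. These 10 genes of 14008 in the table of counts were taken by name, and all 10 were present. They were chosen from earlier results of the same counts across the same 6 groups, so their levels and fold changes are given as a description, with no test of their own. Each of the 10 passed the filter on low counts in every comparison.

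The cells were teloHAEC, a line of human aortic endothelial cells immortalised with telomerase, grown in a medium with VEGF. Every library came from a replicate of 150000 cells that received Cas9 protein bound to guide RNA by electroporation and was collected 2 days later, so all groups, controls included, share Cas9, the electric pulse and the time. In set A, the SMAD3 deletion group (4 libraries) received guides on either side of an enhancer assigned to SMAD3, a transcription factor of TGF-beta signalling. The HPRT-targeted group (4) received the kit's positive control guide against HPRT, the purine salvage gene, which also cuts the genome, and the negative control group (4) a guide with no target. In set B, the LDAH deletion group (4) received guides flanking an enhancer of LDAH (C2orf43), a hydrolase of lipid droplets, beside HPRT-targeted (4) and negative control (7) libraries. The labels record no selection of edited cells and no clones, so each library is a mixed population, and the share of cells edited in each was not analysed here. Nothing in them ties replicates to separate cultures, so errors measure the spread between these libraries.

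Jun and Fos proteins pair through leucine zippers to form the transcription factor AP-1, Jun proteins also pairing with each other, and the pairs bind AP-1 sites and the related cyclic AMP response element. Immediate early genes are those that cells transcribe soon after a growth factor, stress or flow signal without first making new protein, largely through SRF, ELK and CREB factors activated by MAP kinases, and their transcripts are short-lived. MYC pairs with MAX on E-box sites and is known for raising ribosome synthesis and growth. In mice, Junb and Fosl1 are needed for the vessels of the embryo's supporting tissues.

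RefSeq promoter windows of assembly GRCh38.p14 were used for 7 of the 10 genes, namely JUN, JUNB, JUND, FOS, FOSL2, EGR1 and IER2. They run from 250 bases before to 50 after the transcription start that RefSeq uses. This start need not be the end of the gene span given below. For JUN and FOSL2 the whole window lies inside that span. The windows below are those of EGR1 and FOS, the 2 least expressed of the 10 genes, of JUN, the steadiest of them, and of JUNB and FOSL2, whose levels varied together. They are read 5′ to 3′ in the direction of the gene, and capitals mark matches to the motifs searched. EGR1 lies at chr5:138465229-138465528 on the plus strand, FOS at chr14:75278578-75278877 on the plus strand, JUN at chr1:58783998-58784297 on the minus strand, JUNB at chr19:12791236-12791535 on the plus strand and FOSL2 at chr2:28392608-28392907 on the plus strand.
EGR1: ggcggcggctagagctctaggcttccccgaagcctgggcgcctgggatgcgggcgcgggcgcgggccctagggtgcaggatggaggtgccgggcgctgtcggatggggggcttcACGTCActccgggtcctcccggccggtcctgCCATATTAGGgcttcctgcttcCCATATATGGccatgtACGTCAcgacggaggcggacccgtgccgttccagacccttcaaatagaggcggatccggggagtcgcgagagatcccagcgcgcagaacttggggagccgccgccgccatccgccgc
FOS: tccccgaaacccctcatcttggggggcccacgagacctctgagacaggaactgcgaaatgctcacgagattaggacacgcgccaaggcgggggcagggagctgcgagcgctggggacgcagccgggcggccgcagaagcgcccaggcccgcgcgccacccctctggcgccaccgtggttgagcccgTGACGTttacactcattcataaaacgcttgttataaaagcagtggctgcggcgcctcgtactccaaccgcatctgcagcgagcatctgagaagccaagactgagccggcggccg
JUN: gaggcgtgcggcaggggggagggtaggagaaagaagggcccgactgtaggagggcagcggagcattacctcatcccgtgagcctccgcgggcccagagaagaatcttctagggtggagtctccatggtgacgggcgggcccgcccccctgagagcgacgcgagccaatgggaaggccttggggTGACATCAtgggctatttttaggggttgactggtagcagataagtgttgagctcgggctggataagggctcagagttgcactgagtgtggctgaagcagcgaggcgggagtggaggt
JUNB: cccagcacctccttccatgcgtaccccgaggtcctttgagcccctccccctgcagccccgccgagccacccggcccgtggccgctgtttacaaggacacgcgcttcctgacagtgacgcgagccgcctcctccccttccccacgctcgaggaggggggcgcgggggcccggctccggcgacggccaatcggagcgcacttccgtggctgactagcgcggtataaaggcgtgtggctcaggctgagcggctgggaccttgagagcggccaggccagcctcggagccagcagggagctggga
FOSL2: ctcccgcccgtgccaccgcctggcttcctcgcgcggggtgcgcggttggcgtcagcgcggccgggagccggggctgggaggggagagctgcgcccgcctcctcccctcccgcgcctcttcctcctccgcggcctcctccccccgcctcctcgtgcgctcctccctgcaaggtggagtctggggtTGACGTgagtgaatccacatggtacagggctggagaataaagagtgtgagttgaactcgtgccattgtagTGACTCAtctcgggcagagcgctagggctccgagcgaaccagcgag

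Both strands were searched for the AP-1 site TGANTCA, the variant TGACATCA, the core TGACGT of the cyclic AMP response element, the CArG box bound by SRF (by name), the E-box CACGTG and the EGR1 site GCGGGGGCG. EGR1 held 2 CArG boxes, 105 and 83 bases before its start, and 2 such cores on the other strand, 136 and 67 bases before it. FOS held 1 core 64 bases before its start, and JUN held the variant TGACATCA 67 bases before its start. FOSL2 held the core 66 bases before its start and TGACTCA 5 bases after it. JUND, not printed, held the core 3 times, 2 of them overlapping on opposite strands as a palindrome. JUNB and IER2 held no match, and none of the 7 windows held the E-box or the EGR1 site. MYC, FOSL1 and IER3 were left out of the search, so it says nothing of their promoters. Of 35116 RefSeq windows of this length, 7.71% held the AP-1 site, 2.61% the variant, 7.98% the core, 1.29% a CArG box, 7.26% the E-box and 5.07% the EGR1 site. These matches describe letters in a window of 300 bases and nothing about binding.

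Library totals ran from 3.43 M to 7.75 M counts (M, mega). Levels are in CPM, the count scaled to a library of a fixed total, and with a floor of 3 counts a gene without reads could still stand at up to 0.387 to 0.875 CPM, depending on the library. In 7 libraries expression stood apart from the rest of their set. In set A these were replicate 4 of the SMAD3 deletion and replicate 3 of the HPRT-targeted group, and in set B replicate 4 of the LDAH deletion, replicates 2 and 4 of the HPRT-targeted group and replicates 6 and 7 of the negative control. Ribosomal protein genes took 15.3% to 16.4% of counts in the libraries apart of set A, against 11.7% to 14.5% in the others, and 14.9% to 17.3% in those of set B, against 9.35% to 11.3%. The 14 endothelial markers were all measured, from ROBO4 at a mean of 358 CPM to VWF at 2.84 CPM with libraries at 0. Their summed level was 1419 to 2361 CPM in SMAD3 deletion, 1580.4 to 2226 in HPRT-targeted and 2045 to 2185 in negative control libraries of set A. In set B it was 1434 to 2624 CPM in LDAH deletion, 1290.3 to 2659.6 in HPRT-targeted and 1301 to 2766 in negative control libraries. The libraries apart were the lowest of each group that held any. Of 13 markers of other cell types 4 were measured (CD14, CD68, PDGFRA and ACTA2), summing to 19.4 to 58.9 CPM, most of it the actin gene ACTA2. SMAD3 stood at a log2 fold change of -0.44 ± 0.14 (SE) in its deletion, LDAH at -0.76 ± 0.40 in its own, and HPRT1 at -0.33 ± 0.21 in set A and -0.23 ± 0.33 in set B, none of them called. Since the libraries are bulk samples, fewer cells that express a gene and less of its RNA per cell cannot be told apart.

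The 10 genes covered a wide range of levels. The libraries count 3′ tags, without regard to the length of the transcript, so the levels in CPM compare tags between genes. Without molecular identifiers a tag may be a copy of another, so tags are not a count of transcripts. Over all 27 libraries IER2, a nuclear protein gene induced by growth factors, was the highest at 326.9 ± 52.4 CPM (SD). JUN, the founding AP-1 subunit, at 244.3 ± 31.99 CPM, and IER3, a regulator of survival under stress, at 223 ± 36.7 CPM, came next and differed by less than their SDs. JUND, the Jun protein with the most constant expression in many cells, followed at 137 ± 27.2 CPM. FOSL1 and FOSL2, the Fos proteins without the strong activation domain of FOS, stood at 58.5 ± 18.9 and 46.9 ± 7.23 CPM, a difference smaller than the SD of FOSL1 but not than that of FOSL2. MYC had 26.99 ± 9.34 CPM and JUNB, a Jun protein that often restrains JUN, 12.2 ± 5.08 CPM. EGR1, a zinc finger factor, and FOS were the lowest, at 4.17 ± 2.41 and 3.72 ± 1.92 CPM, and could not be ordered beyond their spread. Both were at 0 in HPRT-targeted replicate 2 of set B, which allows up to 0.586 CPM there.

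**Figure D1:**
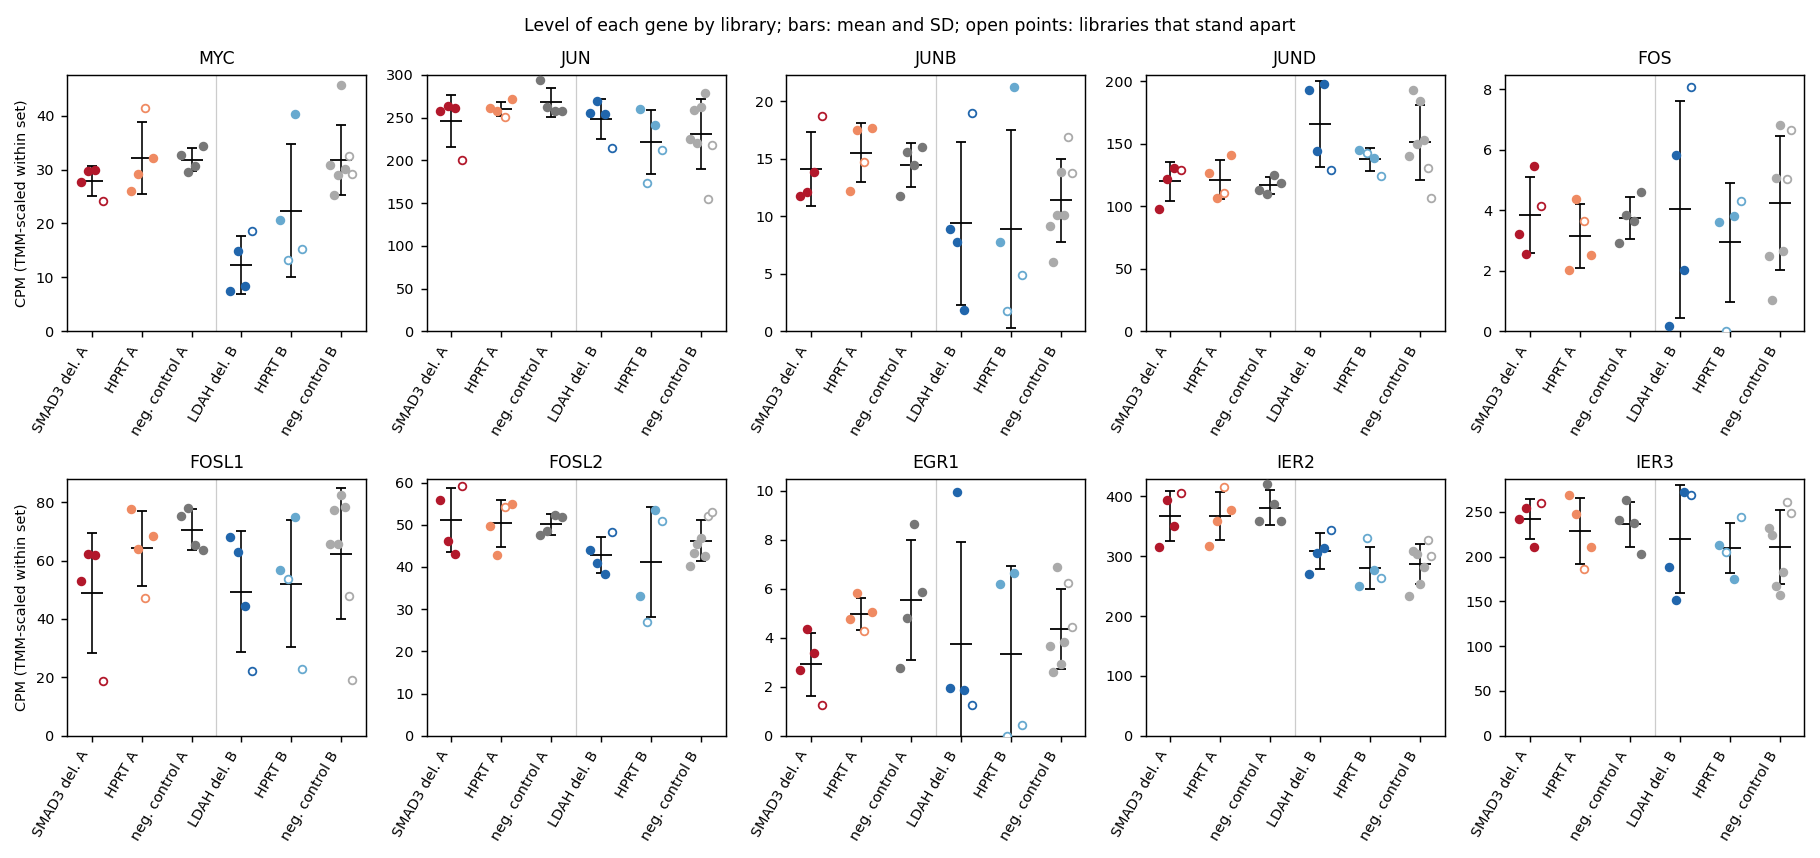
Level of each of the 10 genes in CPM (vertical axis, scaled by TMM within each set) in the libraries of the 6 groups (horizontal axis); points are libraries, open points the 7 libraries apart, bars the mean and SD. MYC in the 4 LDAH deletion libraries, at 7.48 to 18.6 CPM, lies below all 7 negative control libraries of set B, at 25.3 to 45.7 CPM, and the open points of FOSL1, at 18.7 to 53.7 CPM, are the lowest of every group that holds any.

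Within the Jun family JUN made most of the tags and JUNB few. In set A, JUN took 64.6% ± 5.33 of the family's tags in SMAD3 deletion, 65.6% ± 1.87 in HPRT-targeted and 67.1% ± 2.38 in negative control libraries (SD, n = 4 each). In set B it took 58.8% ± 3.74 in LDAH deletion (n = 4), 59.99% ± 3.73 in HPRT-targeted (n = 4) and 58.6% ± 4.43 in negative control libraries (n = 7). JUNB was between 0.413% and 5.58% of the family in every library. In the Fos family the tags were divided between FOSL1 and FOSL2, and FOS reached at most 10.3%, in LDAH deletion replicate 4. FOSL1 took 45.5% ± 15.7 in SMAD3 deletion, 54.2% ± 6.64 in HPRT-targeted and 56.7% ± 3.70 in negative control libraries of set A, and 49.7% ± 14.7 in LDAH deletion, 53.3% ± 16.6 in HPRT-targeted and 53.5% ± 14.3 in negative control libraries of set B. In each set these means differed by less than the SD of the deletion group.

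MYC (ENSG00000136997; chromosome 8, 127735434 to 127741434, plus strand, GRCh38) had its lowest levels in the LDAH deletion. The 4 LDAH deletion libraries held 7.48, 14.96, 8.34 and 18.6 CPM, the HPRT-targeted libraries 20.7, 13.3, 40.2 and 15.3 CPM, and the 7 negative control libraries between 25.3 and 45.7 CPM with a median of 30.1. Every LDAH deletion library lay below every negative control library, while the HPRT-targeted libraries reached into both groups. The mean of the LDAH deletion was 12.4 ± 5.36 CPM (SD, n = 4), that of the HPRT-targeted group 22.4 ± 12.3 CPM (n = 4) and that of the negative control 31.8 ± 6.50 CPM (n = 7). Behind these levels are 42 to 90 MYC counts per library in the LDAH deletion and 132 to 281 in the negative control. The log2 fold change was -1.37 ± 0.33 (SE; 95% interval -2.08 to -0.67) for LDAH deletion over negative control, a level of 0.386 of the control. It was -0.87 ± 0.36 (-1.63 to -0.11) for LDAH deletion over HPRT targeting and -0.50 ± 0.32 (-1.17 to 0.17) for HPRT targeting over negative control. The 3 comparisons share libraries with one another and are not independent.

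The libraries apart weighed on MYC differently in the 3 groups. LDAH deletion replicate 4, which stands apart, had the highest MYC of its group, while HPRT-targeted replicates 2 and 4, which also stand apart, had the lowest of theirs. Negative control replicates 6 and 7 had 32.5 and 29.2 CPM, inside the range of the other controls. Without these libraries the LDAH deletion averaged 10.3 ± 4.10 CPM (n = 3), the HPRT-targeted group 30.5 ± 13.8 CPM (n = 2) and the negative control 32.2 ± 7.84 CPM (n = 5). The log2 fold changes were then -1.65 ± 0.29 for LDAH deletion over negative control, -1.58 ± 0.33 for LDAH deletion over HPRT targeting and -0.07 ± 0.30 for HPRT targeting over negative control. With all libraries, leaving out 1 library at a time gave -1.63 to -1.19 for LDAH deletion over negative control, and -1.13 to -0.42 for LDAH deletion over HPRT targeting. The part of the libraries' ribosomal protein share in these values was not tested.

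**Figure D2:**
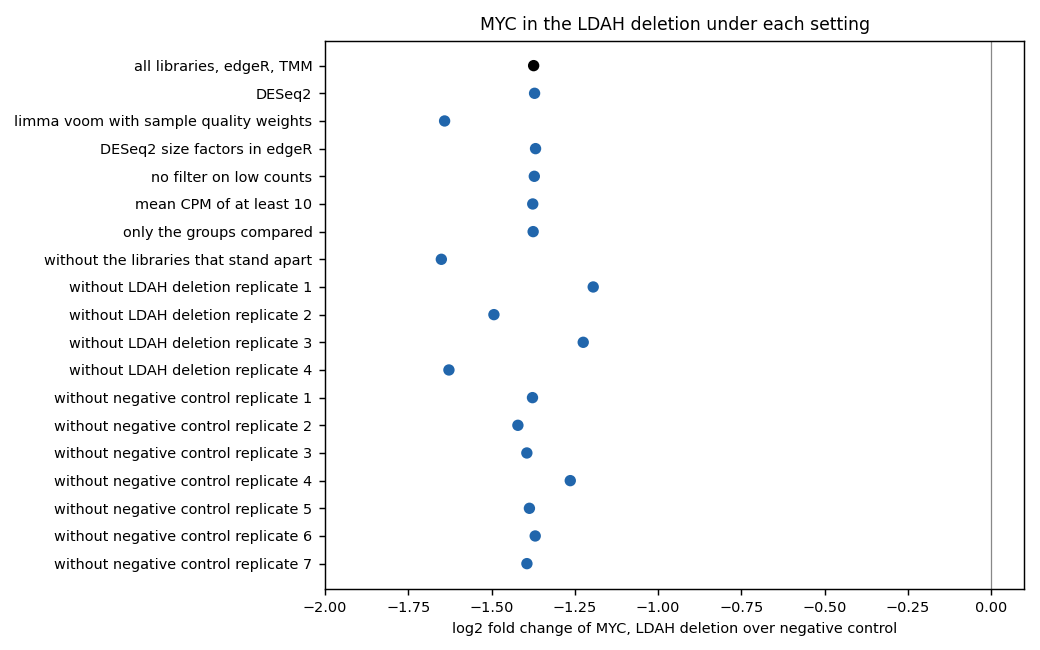
Log2 fold change of MYC for LDAH deletion over negative control (horizontal axis) under each processing setting (rows); the black point is the fit of all libraries with edgeR and TMM. The values run from -1.65 without the 5 libraries apart of set B to -1.19 without LDAH deletion replicate 1, and none reaches 0.

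In set A the levels of MYC were near one another. The SMAD3 deletion libraries had 27.6, 29.8, 29.95 and 24.1 CPM, the HPRT-targeted libraries 26.1, 29.2, 41.4 and 32.1 CPM, and the negative control libraries 32.6, 29.5, 30.7 and 34.4 CPM. The groups overlapped. The log2 fold change was -0.19 ± 0.15 for SMAD3 deletion over negative control, -0.20 ± 0.15 for SMAD3 deletion over HPRT targeting and 0.02 ± 0.15 for HPRT targeting over negative control. The highest library, HPRT-targeted replicate 3, stands apart; with the libraries apart left out, SMAD3 deletion over HPRT targeting was at 0.00.

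Calls are genes with a Benjamini-Hochberg adjusted p under 0.05 in edgeR's quasi-likelihood test over all genes tested. In the LDAH deletion over negative control the background was 0.0% of 11769 genes, and 0 of the 10 genes were called; 543 genes reached an unadjusted p under 0.05, MYC among them. LDAH deletion over HPRT targeting had 0.0% called and 497 unadjusted, again with MYC, and HPRT targeting over negative control in set B had 0.0% called and 206 unadjusted, with 0 of the 10. In set A, 0.0% of 11467 genes were called in each of SMAD3 deletion over negative control (778 unadjusted, EGR1 among them), HPRT targeting over negative control (257) and SMAD3 deletion over HPRT targeting (669). HPRT targeting in the joint fit of sets A and B called 0.0% of 11836 genes (378 unadjusted). DESeq2 and limma voom with sample quality weights called 0 of the 10 genes in all of these comparisons. Without the libraries apart, edgeR called 1.74% of 12153 genes for LDAH deletion over negative control and 0.634% for LDAH deletion over HPRT targeting. MYC was 1 of 10 called in each. Because MYC was chosen with these results known, the calls are a description of its place among all genes.

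Groups whose libraries do not overlap are another description. Over all genes this was so for 1.09% in LDAH deletion over negative control, 2.25% in LDAH deletion over HPRT targeting and 0.28% in HPRT targeting over negative control of set B. Of the 10 genes it was so for MYC in the first and for 0 in the other 2. In set A it was so for 5.48% of all genes in SMAD3 deletion over negative control, 4.34% in HPRT targeting over negative control and 3.24% in SMAD3 deletion over HPRT targeting. Of the 10 genes it was so for FOSL1 in the first and for 0 in the other 2.

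**Figure D3:**
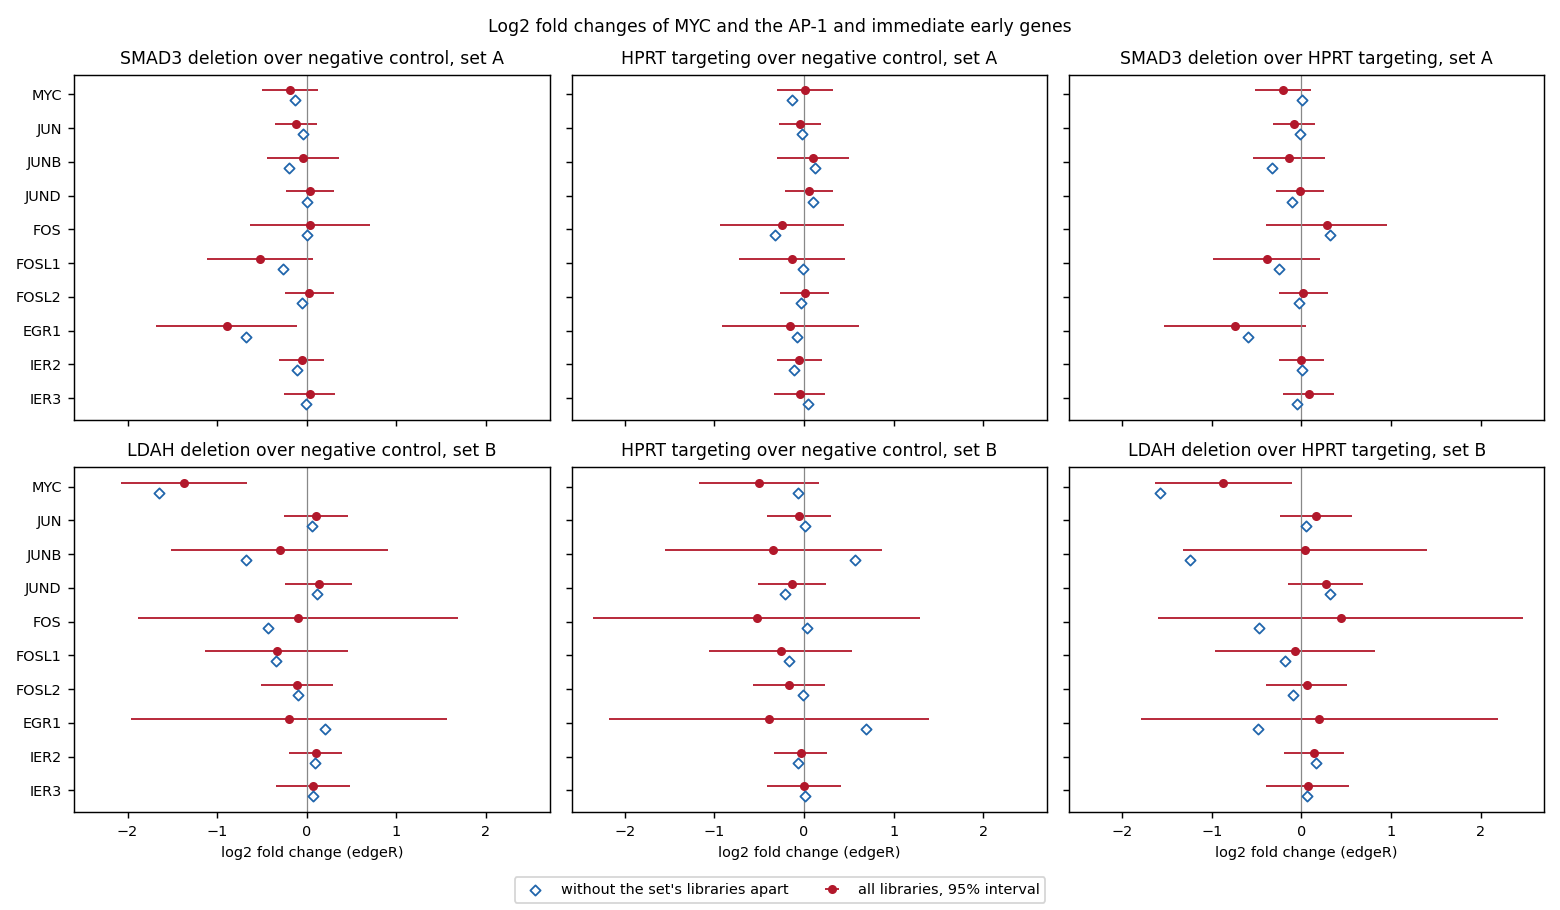
Log2 fold changes of the 10 genes (rows) in the 6 comparisons within sets (panels; horizontal axis log2 fold change from edgeR); red points are all libraries with the 95% interval, open diamonds the value without the libraries apart of that set, 2 in set A and 5 in set B. In set A the intervals of 9 genes or more reach across 0 in each panel; in set B the MYC interval lies below 0 in both panels of the LDAH deletion, and the intervals of JUNB, FOS and EGR1 are the widest.

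JUN and JUND differed little between groups. JUN (ENSG00000177606; chromosome 1, 58780788 to 58784327, minus strand) had 258, 264, 261 and 200.1 CPM in SMAD3 deletion, 261, 257, 251 and 272 CPM in HPRT-targeted, and 294, 263, 257 and 258 CPM in negative control libraries of set A. In set B it had 256, 269.7, 254 and 215 CPM in LDAH deletion and 260.1, 174, 242 and 212 CPM in HPRT-targeted libraries, against 155 to 279 CPM, with a median of 225, in negative control libraries. The low libraries were again mostly those apart, at 155 to 218 CPM in set B and 200.1 and 251 CPM in set A. The log2 fold change was -0.12 ± 0.11 for SMAD3 deletion over negative control and 0.11 ± 0.17 for LDAH deletion over negative control, or -0.04 and 0.05 without the libraries apart. JUND (ENSG00000130522; chromosome 19, 18279760 to 18281622, minus strand) averaged 119.9 ± 15.2 CPM in SMAD3 deletion, 121 ± 15.6 in HPRT-targeted and 117 ± 6.86 CPM in negative control libraries of set A (n = 4 each). In set B it averaged 166 ± 34.3 CPM in LDAH deletion (n = 4), 138 ± 9.28 in HPRT-targeted (n = 4) and 151 ± 30.0 CPM in negative control libraries (n = 7). Its log2 fold changes over negative control were 0.04 ± 0.12 in the SMAD3 deletion and 0.14 ± 0.18 in the LDAH deletion. Over HPRT targeting they were -0.02 ± 0.12 in the SMAD3 deletion and 0.27 ± 0.20 (-0.15 to 0.69) in the LDAH deletion. The last was 0.32 ± 0.17 without the libraries apart, not called in either fit.

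JUNB (ENSG00000171223; chromosome 19, 12791496 to 12793315, plus strand) was scattered in set B. The LDAH deletion libraries had 8.91, 7.82, 1.87 and 18.95 CPM, the HPRT-targeted libraries 7.76, 1.73, 21.3 and 4.94 CPM, and the negative control libraries 6.07 to 16.9 CPM with a median of 10.1. The groups overlapped, and the extremes of both edited groups reached past the controls on either side. The log2 fold change was -0.30 ± 0.57 for LDAH deletion over negative control and 0.04 ± 0.65 for LDAH deletion over HPRT targeting, or -0.68 and -1.25 without the libraries apart, not called. In set A JUNB was even, at 14.1 ± 3.21 CPM in SMAD3 deletion, 15.6 ± 2.60 in HPRT-targeted and 14.5 ± 1.90 CPM in negative control libraries (n = 4 each). The annotation places part of HOOK2 on the opposite strand across JUNB, and whether the counting used strand is not stated, so reads of the 2 genes may not be separated. The same holds for IER2 with AC011446.2 and for IER3 with IER3-AS1, while FOSL2 overlaps AC104695.3 on its own strand and FLJ31356 on the other.

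FOSL1 (ENSG00000175592; chromosome 11, 65892049 to 65900573, minus strand) was lower in every SMAD3 deletion library than in any negative control library of its set. It had 52.96, 62.3, 61.9 and 18.7 CPM in SMAD3 deletion, 77.7, 63.9, 47.1 and 68.3 CPM in HPRT-targeted, and 75.2, 78.1, 65.5 and 63.8 CPM in negative control libraries. The gap between the highest SMAD3 deletion library and the lowest control was small, and the lowest library by far, replicate 4, stands apart. The log2 fold change was -0.52 ± 0.28 (-1.12 to 0.07) with all libraries and -0.26 without those apart. In set B FOSL1 had 68.0, 63.02, 44.4 and 22.1 CPM in LDAH deletion and 56.9, 53.7, 75.0 and 22.8 CPM in HPRT-targeted libraries, against 19.3 to 82.4 CPM, with a median of 65.8, in negative control libraries. Its log2 fold change over negative control was -0.33 ± 0.38 for LDAH deletion and -0.26 ± 0.38 for HPRT targeting, and the groups overlapped. The 7 libraries apart held 18.7 to 53.7 CPM of FOSL1, and the other 20 held 44.4 to 82.4 CPM.

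**Figure D4:**
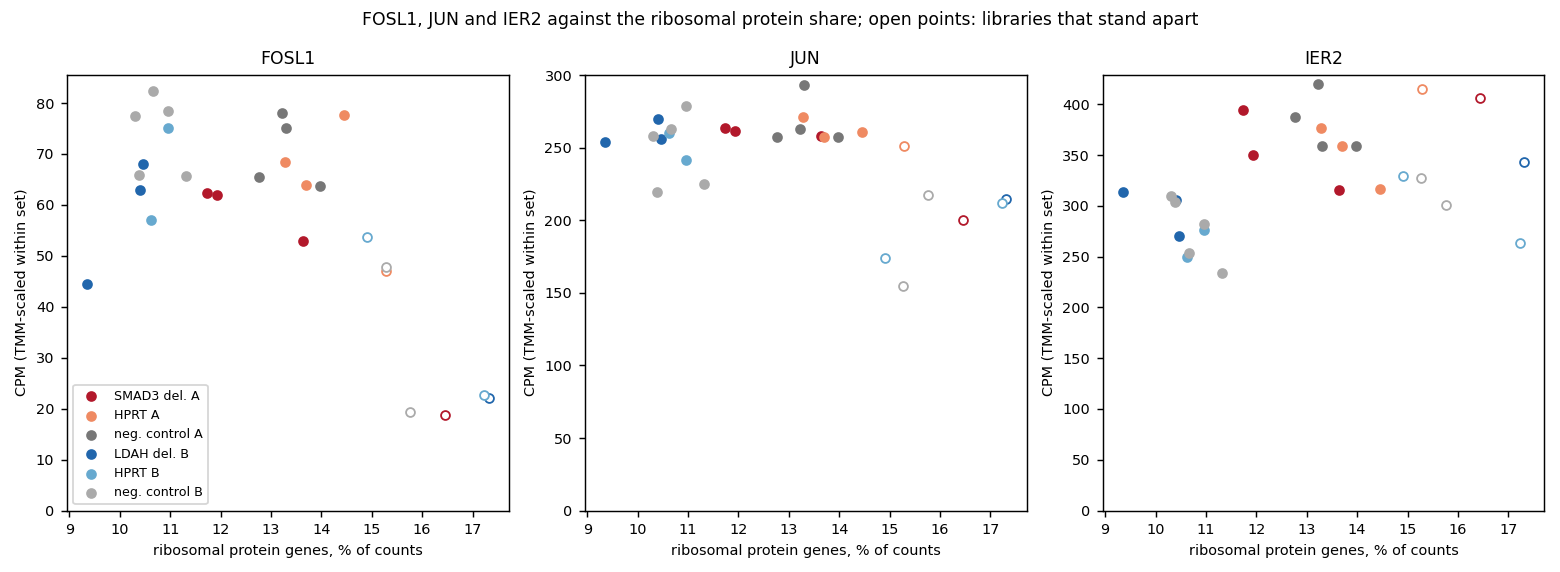
CPM of FOSL1, JUN and IER2 (vertical axes, scaled by TMM within each set) against the share of counts in ribosomal protein genes in percent (horizontal axis) for the 27 libraries; open points are the 7 libraries apart. The open points, at 14.9% to 17.3%, hold the 4 lowest FOSL1 levels, 18.7 to 22.8 CPM, and the lowest JUN level, 155 CPM, while IER2 is not low in them.

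FOSL2 (ENSG00000075426; chromosome 2, 28392448 to 28417312, plus strand) was the most even of the Fos genes. It averaged 51.1 ± 7.67 CPM in SMAD3 deletion, 50.4 ± 5.56 in HPRT-targeted and 50.1 ± 2.41 CPM in negative control libraries of set A (n = 4 each). In set B it averaged 42.8 ± 4.25 CPM in LDAH deletion (n = 4), 41.1 ± 13.1 in HPRT-targeted (n = 4) and 46.2 ± 4.83 CPM in negative control libraries (n = 7). Its log2 fold changes ran from -0.17 to 0.06 over the 6 comparisons within sets. FOS (ENSG00000170345; chromosome 14, 75278774 to 75282230, plus strand), whose transcript is among the first to appear after a stimulus, was near the limit of the libraries. It had 3.20, 2.56, 5.45 and 4.14 CPM in SMAD3 deletion, 2.04, 4.38, 3.65 and 2.53 CPM in HPRT-targeted, and 2.91, 3.86, 3.65 and 4.60 CPM in negative control libraries of set A. In set B it ranged from 0.178 CPM, a single count, to 8.08 CPM within the LDAH deletion alone, from 0.0 to 4.30 CPM in HPRT-targeted and from 1.04 to 6.83 CPM in negative control libraries. The intervals of its fold changes in set B are accordingly wide, -1.88 to 1.69 for LDAH deletion over negative control.

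EGR1 (ENSG00000120738; chromosome 5, 138465490 to 138469315, plus strand) was low in all groups. In set A it had 2.67, 4.35, 3.37 and 1.26 CPM in SMAD3 deletion, 4.75, 5.84, 4.28 and 5.06 CPM in HPRT-targeted, and 2.77, 4.82, 8.66 and 5.88 CPM in negative control libraries. The SMAD3 deletion libraries were on the low side but overlapped both other groups. The log2 fold change of SMAD3 deletion was -0.89 ± 0.37 (-1.68 to -0.11) over negative control and -0.74 ± 0.37 (-1.53 to 0.05) over HPRT targeting, or -0.67 and -0.59 without the libraries apart. These rest on 7 to 34 EGR1 counts per library in the deletion and 19 to 57 in the negative control. In set B the LDAH deletion libraries had 1.96, 9.98, 1.87 and 1.24 CPM and the HPRT-targeted libraries 6.21, 0.0, 6.65 and 0.43 CPM, against 2.60 to 6.89 CPM, with a median of 3.82, in negative control libraries. A single LDAH deletion library, replicate 2, held more EGR1 than all others, and the log2 fold change over negative control, -0.20 ± 0.83, was -1.34 without it.

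IER2 (ENSG00000160888; chromosome 19, 13150415 to 13154908, plus strand) averaged 367 ± 41.8 CPM in SMAD3 deletion, 367 ± 40.6 in HPRT-targeted and 381 ± 29.2 CPM in negative control libraries of set A (n = 4 each). In set B it averaged 308 ± 30.0 CPM in LDAH deletion (n = 4), 280.0 ± 34.9 in HPRT-targeted (n = 4) and 287 ± 33.3 CPM in negative control libraries (n = 7). IER3 (ENSG00000137331; chromosome 6, 30743199 to 30744554, minus strand) averaged 242 ± 22.2 CPM in SMAD3 deletion, 229 ± 37.0 in HPRT-targeted and 236 ± 25.2 CPM in negative control libraries of set A, and 220.1 ± 60.2 CPM in LDAH deletion, 209.6 ± 28.4 in HPRT-targeted and 210.4 ± 41.1 CPM in negative control libraries of set B. The log2 fold changes of both genes lay between -0.06 and 0.14 in all 6 comparisons within sets, with SEs of 0.12 to 0.22. The LDAH deletion libraries of IER3 spanned 151 to 272 CPM, as wide as the 7 controls at 157 to 261 CPM.

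HPRT targeting over both sets compares a guide that cuts at HPRT with a guide that has no target. Cutting as such and disruption of HPRT cannot be told apart in it. All 10 had negative log2 fold changes over the negative control, from -0.41 ± 0.45 for FOS to -0.03 ± 0.11 for IER3, with a median of -0.12 beside -0.02 over all 11836 genes. All 95% intervals reached across 0. In set B alone all 10 were negative too, with a median of -0.21 beside -0.02 over all genes, while in set A 6 were negative and 4 positive, with a median of -0.04 beside -0.01. These counts did not hold without the libraries apart, when 5 of the 10 were positive and 5 negative in set B and 3 were positive and 7 negative over both sets, among the 3 JUNB at 0.33 and EGR1 at 0.27; MYC was then at -0.10. The other immediate early genes of set B, with all libraries, had 13 higher and 7 lower, with a median of 0.04. The difference of the HPRT effect between set B and set A was -0.52 for MYC and -0.44 for JUNB on the log2 scale, and edgeR's test of this difference called 0 of 11836 genes. For the deletions over negative control, the median of the 10 was -0.05 in SMAD3 deletion beside 0.00 over all genes and -0.10 in LDAH deletion beside 0.01.

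Genes around the 10 in their pathways were counted the same way, and with all libraries 0 were called in any list and comparison. Of 23 other immediate early genes in the table, 20 passed the filter on low counts; of these, 4 were higher and 16 lower in LDAH deletion than in negative control libraries, the median log2 fold change being -0.21 beside 0.01 over all genes; the counts were 2 higher and 18 lower over HPRT targeting, with a median of -0.20. SMAD3 deletion over negative control had 6 higher and 14 lower, with a median of -0.12. The most abundant were ZFP36L1, which promotes decay of unstable messengers, at -0.25 ± 0.35 in LDAH deletion over negative control, the survival gene MCL1 at -0.16 ± 0.19, and KLF6, a zinc finger factor, at -0.01 ± 0.15. CCN1, a secreted matrix protein gene, averaged 63.8 ± 23.2 CPM in LDAH deletion (n = 4), against 118 ± 14.95 CPM in negative control (n = 7) and 134 ± 14.5 CPM in HPRT-targeted libraries (n = 4). Its log2 fold change was -0.89 ± 0.22 over negative control and -1.07 ± 0.24 over HPRT targeting. CEBPB, a leucine zipper factor, averaged 7.49 ± 6.92 CPM in LDAH deletion and 17.2 ± 4.48 CPM in negative control libraries, a log2 fold change of -1.24 ± 0.46. With the libraries apart left out, edgeR called CCN1 in both LDAH comparisons (-1.10 with adjusted p = 0.00414 over negative control, -1.32 with adjusted p = 0.00787 over HPRT targeting) and CEBPB in the first (-2.02, adjusted p = 0.00514). In that fit 1.74% of all 12153 genes were called over negative control, with 3 libraries against 5. Over HPRT targeting 0.634% were called, with 3 libraries against 2.

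Of 31 genes of the ERK and MAP kinase pathway in the table, 30 passed the filter, and they had 10 higher and 20 lower in LDAH deletion over negative control (median -0.08), and 18 higher and 12 lower in SMAD3 deletion over negative control (median 0.08). DUSP6, the phosphatase that switches off ERK, was at -0.22 ± 0.26 in the LDAH deletion and 0.32 ± 0.16 in the SMAD3 deletion. Without the libraries apart DUSP6 was at -0.07 and 0.13. NRAS, a Ras switch protein gene, averaged 91.6 ± 81.0 CPM in LDAH deletion and 128 ± 49.2 CPM in negative control libraries, a log2 fold change of -0.48 ± 0.42. In the fit without the libraries apart it was called in both LDAH comparisons, at -0.96 over negative control and -1.05 over HPRT targeting (edgeR adjusted p = 0.00728 and 0.0300). The shares of all genes called in these 2 comparisons were 1.74% and 0.634%. Of 17 dimer partners of AP-1 in the table, 16 passed the filter in set B, and 8 were higher and 8 lower in LDAH deletion over negative control. ATF4, the stress response factor, was at -0.08 ± 0.19 there, and the CNC factors NFE2L2 and NFE2L1 were at -0.24 ± 0.16 and 0.12 ± 0.54. MAFG, a small Maf protein gene, averaged 53.8 ± 7.90 CPM in LDAH deletion and 85.2 ± 14.03 CPM in negative control libraries, a log2 fold change of -0.66 ± 0.17. Without the libraries apart MAFG was called (-0.65, edgeR adjusted p = 0.0282), beside 1.74% of all genes.

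Genes tied to MYC were divided in the LDAH deletion. Of 15 genes of the MYC network in the table, 14 passed the filter, and 10 were higher and 4 lower over negative control, with a median of 0.20, or -0.03 without the libraries apart. MAX, the partner of MYC, was at -0.18 ± 0.23, MLXIP, a relative that senses glucose, at 0.26 ± 0.56, and FBXW7, which marks MYC protein for destruction, at 0.22 ± 0.18. All 30 MYC target genes of ribosome synthesis passed the filter, and 19 were higher and 11 lower over negative control, with a median of 0.06, and 0 were called with or without the libraries apart. NCL (nucleolin) was at 0.07 ± 0.55, NPM1 (nucleophosmin) at 0.05 ± 0.14 and PA2G4, a regulator of growth, at 0.14 ± 0.17. In SMAD3 deletion over negative control 6 of these 30 were higher and 24 lower, with a median of -0.16, or -0.02 without the libraries apart.

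Of 17 AP-1 target genes in the table, 16 passed the filter in set B, and 6 were higher and 10 lower in LDAH deletion over negative control, with a median of -0.16, and 5 were higher and 11 lower over HPRT targeting, with a median of -0.24. The plasminogen activator gene PLAU averaged 36.0 ± 23.0 CPM in LDAH deletion (n = 4), against 74.1 ± 38.2 CPM in HPRT-targeted (n = 4) and 76.0 ± 16.6 CPM in negative control libraries (n = 7). When the libraries apart were left out, PLAU was called in both comparisons, at -1.55 over negative control and -1.83 over HPRT targeting (edgeR adjusted p = 0.0145 and 0.0276). Of all genes, 1.74% and 0.634% were called in them. VIM, the intermediate filament gene, was at -0.13 ± 0.23 in LDAH deletion over negative control. MT2A, a metallothionein gene, averaged 7745 ± 1209 CPM in SMAD3 deletion and 11460 ± 1265 CPM in HPRT-targeted libraries, a log2 fold change of -0.56 ± 0.12. Without the libraries apart, when 0.475% of 11574 genes were called in that comparison, MT2A was called (-0.46, edgeR adjusted p = 0.0366). Over negative control libraries, at 11050 ± 535 CPM, its log2 fold change in SMAD3 deletion was -0.51 ± 0.12. This was -0.42 without the libraries apart, and MT2A was not called there (edgeR adjusted p = 0.0945). Whether the called genes share a cause with MYC was not tested.

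**Figure D5:**
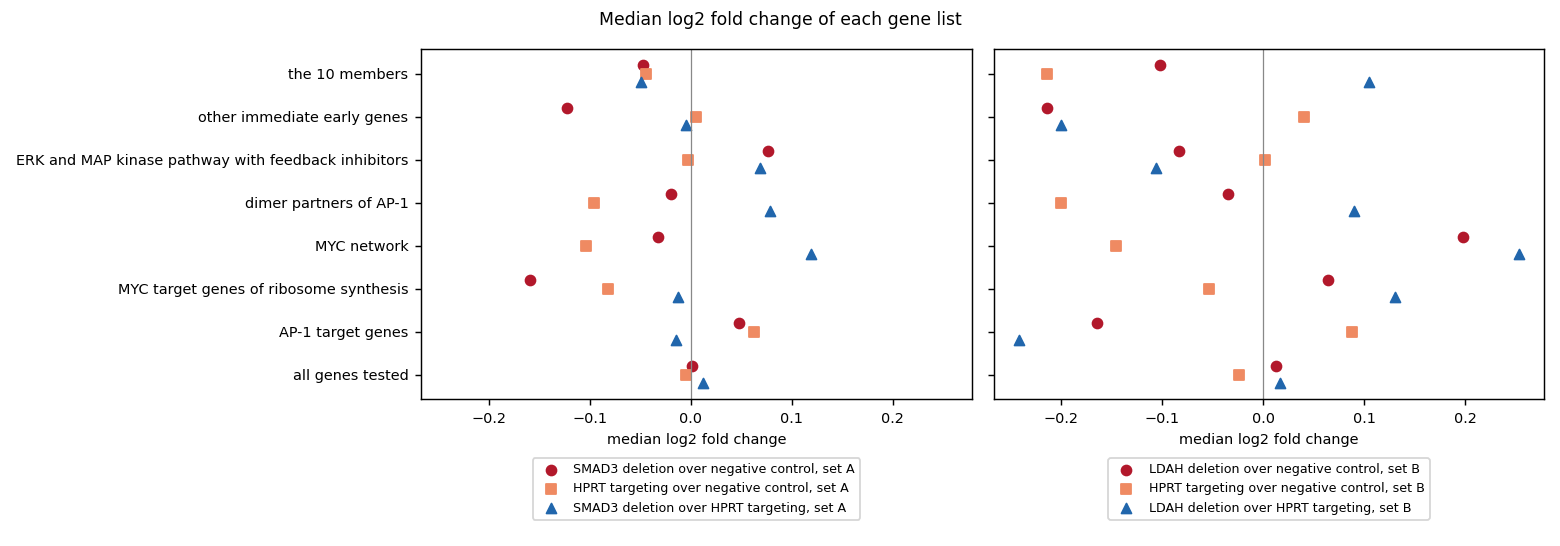
Median log2 fold change (horizontal axis) of the 10 genes, of each pathway list and of all genes tested (rows) in the comparisons of set A (left) and set B (right); symbols mark the comparison. In set B, other immediate early genes and AP-1 target genes have medians of -0.21 and -0.16 in LDAH deletion over negative control, beside 0.01 over all genes.

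Variation between libraries of the same group linked some of the genes. Correlations are Pearson's r of log2 CPM with group means removed, over 27 libraries that share processing, depth and, in 7 cases, the distinct profile described above; they are descriptions. MYC and JUNB had r = 0.73, and 0.60 over the 20 libraries not apart. JUNB and FOSL2 had 0.63, and 0.51 without the libraries apart, and JUN and FOSL1 had 0.55 and then 0.41. Other pairs depended on the libraries apart: JUN with IER2 was -0.54 with them and 0.04 without, and JUNB with FOSL1 was -0.15 with them and 0.63 without. The values of IER3 with MYC and with JUNB also depended on the libraries apart. They were -0.37 and -0.17 over 27 libraries, and -0.67 and -0.78 over 20.

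The table held 8469 genes with a mean of at least 10 CPM, and those of the 10 among them were left out of the ranking. Most like MYC were GTF3C6, a subunit of an RNA polymerase III factor, at r = 0.75, KCTD15 at 0.74 and IL15RA, an interleukin receptor chain, at 0.73. All 3 had 0.67 to 0.78 over the 20 libraries not apart. The genes named here were picked for the highest r over the 27 libraries. The 20 are among those 27, so their values are no separate check. JUNB was most like SNAI1, a repressor of epithelial genes, at 0.86 (0.84 over 20), JUND most like MAFK, a small Maf protein, at 0.77 (0.83), and FOSL2 most like RNH1, the ribonuclease inhibitor, at 0.82 (0.75). IER2 was most like ZRANB2, a splicing factor, at 0.89 (0.88), and IER3 most like UROS, an enzyme of haem synthesis, at 0.83 (0.89). JUN and FOSL1 were different: JUN with PI4KA had 0.91 over all libraries but 0.41 over the 20, and FOSL1 with POM121 had 0.95 but 0.25. The likeness of JUN and FOSL1 to these genes was thus much smaller without the libraries apart. EGR1 and FOS, below 10 CPM, were not compared in this way.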

How the data were processed

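Messenger RNA 3′ ends of teloHAEC were sequenced in 27 QuantSeq libraries with reads of 86 cycles, per the labels. The authors deposited raw read counts for 14008 Ensembl genes, and no count column was left out. Per the submitters' processing notes, edgeR 3.24.3 and hg38 were used; the aligner is not given in the sources used here, nor is the counter. Symbols came from the gene name table for 13949 IDs and from GENCODE 29 for 57 more, and 2 had none. Gene coordinates are GENCODE 29 on GRCh38, and promoters are RefSeq's.

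The 10 genes, the lists and the tests were chosen with earlier results of these data known. The genes named are the 10, the 3 most alike for each above 10 CPM, and for each list the 3 most abundant and any called; 2 of these are not reported here.

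Counts were fitted with edgeR 4.0.16 in R 4.3.3 (TMM, filterByExpr by group, quasi-likelihood test, Benjamini-Hochberg over all genes at 0.05), for set A (12 libraries, 11467 genes), set B (15, 11769) and both control groups of the 2 sets with set as a covariate (19, 11836). The SE is the log2 fold change divided by the root of F, and intervals are at 95%. CPM were scaled by TMM within a set, so levels across sets rest on separate scalings. The cell type markers, the floor and the correlations that define the libraries apart were not scaled by TMM. The common dispersion came to 0.0434 for set A, against 0.195 for set B. Without the libraries apart it was 0.0142 for set A and 0.0617 for set B. Libraries stand apart where their median correlation of log2 CPM (prior count 2, genes with a mean of at least 10 CPM) fell more than 3 scaled median absolute deviations under their set's median. Alternatives were DESeq2 1.42.0, limma 3.58.1 voom with quality weights, DESeq2 size factors, other filters, fewer groups in the fit, leaving out each library, and leaving out those apart. Reads carry no molecular identifiers, so limits from counts cover counting error only. The labels number the SMAD3 and LDAH deletion libraries apart from their controls (10 to 13 and 50 to 54, against 26 to 33 and 55 to 67), so handling that follows the number cannot be told apart from the deletions.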

Additional observations from a re-analysis of the deposited data

Results flagged for a closer look

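Dixon's test was applied to 60 sets of libraries, 10 genes in 6 groups, and 5 had a library far from the others; chance alone gives about 1 in 20. The genes were chosen with these values known, so the flags describe the libraries and add no support to any difference. MYC was highest in negative control replicate 4 of set B, at 45.7 CPM against 25.3 to 32.5 CPM in the other 6. JUN was lowest in SMAD3 deletion replicate 4, at 200.1 CPM against 258 to 264 CPM, and this library stands apart. JUN was highest in negative control replicate 1 of set A, at 294 CPM against 257 to 263 CPM. FOS was at 0.0 CPM in HPRT-targeted replicate 2 of set B, which stands apart, against 3.62 to 4.30 CPM in the other 3. EGR1 was highest in LDAH deletion replicate 2, at 9.98 CPM against 1.24 to 1.96 CPM in the other 3.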

How the results depend on the processing

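The fits called 0 genes in each of the 7 comparisons, and this count moved with the setting. DESeq2 called 2 genes for SMAD3 deletion over negative control, 1 for HPRT targeting over negative control in set A, 15 for SMAD3 deletion over HPRT targeting, 6 for LDAH deletion over negative control and 1 for HPRT targeting across sets. With limma voom and sample quality weights 2, 5 and 6 genes were called for SMAD3 deletion over negative control, SMAD3 deletion over HPRT targeting and HPRT targeting across sets. Without the libraries apart edgeR called 1 for SMAD3 deletion over negative control, 1 for HPRT targeting in set A, 55 for SMAD3 deletion over HPRT targeting, 212 for LDAH deletion over negative control, 77 for LDAH deletion over HPRT targeting and 1 for HPRT targeting across sets. Leaving out 1 library at a time gave 0 to 2 for SMAD3 deletion over HPRT targeting (2 without HPRT-targeted replicate 3), 0 to 3 for LDAH deletion over negative control (3 without LDAH deletion replicate 4) and 0 in the rest. The cause was not tested. Of 1196 recomputed fold changes of the 10 genes, 1194 moved by less than 1 SD. The others were EGR1 in LDAH deletion over negative control without LDAH deletion replicate 2 (-1.34) and MYC in LDAH deletion over HPRT targeting without the libraries apart (-1.58). This SD is that of log2 CPM within the groups compared, libraries apart included, so a large shift can stay under it. Without the libraries apart JUNB went from 0.04 to -1.25 in LDAH deletion over HPRT targeting. In HPRT targeting over negative control of set B it went from -0.34 to 0.57. Neither shift reached 1 SD. Of 84 recomputed correlations 8 moved, all of them without the libraries apart. FOS and EGR1 are limited by depth, with 0 to 60 counts per library. No paired analysis was possible because the labels give no number that 2 libraries share, and do not say that neighbouring numbers mark a pair.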
